A study of Mus musculus with 6 samples.

Results

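The G1 cyclins, their kinases and the E2f factors were examined in freshly sorted quiescent muscle stem cells (qMuSCs), which rest beneath the sheath of muscle fibers. The set was chosen by gene symbol and holds 10 genes of the 31053 listed: the D cyclins Ccnd1, Ccnd2 and Ccnd3, the E cyclin Ccne1, the kinases Cdk2, Cdk4 and Cdk6, and the transcription factors E2f1, E2f3 and E2f4. All 10 had counts in each of the 6 mice, and 9 passed the expression minimum of a mean normalized count above 10. Ccne1 did not pass and was not part of the test across genes.

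RNA was sequenced from 3 control mice, called WT (Pax7nGFP/+;Pax7+/+;Dio2Fl/Fl, mice c124, c129 and c130), and from 3 cD2KO mice (Pax7nGFP/+;Pax7-CreERT2/+;Dio2Fl/Fl, mice fl125, fl126 and fl128). Mice were 3 to 4 months old, both groups are labelled as given tamoxifen, and the muscles were at rest. All 6 carried floxed alleles of Dio2, the gene of type 2 deiodinase (D2), which makes the active thyroid hormone T3, and a Pax7-driven nuclear GFP used for the sort. Only cD2KO mice carried the tamoxifen-dependent recombinase CreERT2 under Pax7, so an effect of the recombinase or of its allele and an effect of Dio2 loss cannot be told apart. The interval between tamoxifen and the sort is not given in the sources used here.

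A resting cell enters the cell cycle through G1. D cyclins are made in response to growth signals and bind Cdk4 or Cdk6, and cyclin E binds Cdk2. These kinases phosphorylate the retinoblastoma protein and its relatives, the pocket proteins, which release E2f factors to switch on genes of DNA synthesis. E2f1 and E2f3 are chiefly activators, whereas E2f4 is the E2f most often found on repressed promoters of resting cells. In muscle, D cyclins are also known for their opposition to differentiation (cyclin D1) or their association with it (cyclin D3).

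Total counts ran from 2184073 to 3897787 per mouse, so that 3 counts stand for 0.770 to 1.37 per 1000000 total counts, without TMM factors. Levels are given in CPM (counts scaled to 1000000 per library, with TMM factors). Dio2 did not separate the groups: it had 1.85 to 5.38 CPM in WT and 0.314 to 6.79 CPM in cD2KO mice, and the library labelled fl125 was the highest of the 6 (two-sided exact permutation test, p = 0.7). These counts cover the whole gene and not the floxed exon alone. Markers of muscle stem cells were present in every mouse (12 of 12 genes, summed level 1693 to 2256 CPM in WT and 2003 to 3196 CPM in cD2KO), with Pax7 itself at 212 to 687 CPM. Markers of other cells were present as well. The 10 mural cell markers summed to 5508 to 9388 CPM in WT and 11160 to 16360 CPM in cD2KO, and the 14 immune markers to 4499 to 8315 and 227 to 2926 CPM. The 12 endothelial markers summed to 299 to 426 and 244 to 316 CPM, the 10 fibroadipogenic markers to 3238 to 5185 and 1937 to 4628 CPM, the 6 Schwann cell markers to 4151 to 6406 and 5671 to 6532 CPM, and the 5 genes of activated or differentiating myogenic cells to 315 to 427 and 543 to 892 CPM. The mural, immune and activated myogenic sums did not overlap between the groups, but the sums hide unequal members. At an unadjusted p under 0.05 in edgeR, 5.34% of all genes tested were higher and 6.62% lower. By this test 4 of 10 mural markers were higher, the contractile genes Acta2, Myh11, Tagln and Cnn1. The pericyte markers Rgs5 and Pdgfrb had log2 fold changes of 0.00 and -0.06. Of the endothelial markers 6 of 11 tested were lower although their sum overlapped, and 3 of 14 immune markers were lower with all 14 below 0. By the same test 3 of 12 muscle stem cell markers were higher and 0 lower. Of 9 fibroadipogenic markers 1 was higher and 1 lower, and 3 of 6 Schwann cell markers were lower. Of 4 activated myogenic genes 1, Des, was higher. The other 3, Myod1, Myog and Mymk, had log2 fold changes of -0.07, -0.15 and -0.03. These libraries are bulk RNA, in which a change in the number of cells of a type and a change in RNA per cell cannot be told apart. The library labelled fl125 stood apart on the first principal component, at 67.5 against -49.3 to 8.07 for the others. Its immune sum was the lowest of all, at 227 CPM against 2494 in fl126 and 2926 in fl128. Its fibroadipogenic sum was also the lowest (1937 CPM), and its muscle stem cell sum was the highest (3196 CPM). The part of these markers in its position was not tested.

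The D cyclins are near relatives, so the coding starts are shown here to let a reader see how alike and how separable their reads are. The capitals mark the codons of the Leu-x-Cys-x-Glu motif through which D cyclins bind pocket proteins. The sequences are the first 36 coding bases from GENCODE M21 (mm10), 5′ to 3′ on the coding strand, for Ccnd1 at chr7:144939658-144939693 (minus strand), Ccnd2 at chr6:127150738-127150773 (minus strand) and Ccnd3 at chr17:47593655-47593690 (plus strand), each in the first coding exon.
Ccnd1: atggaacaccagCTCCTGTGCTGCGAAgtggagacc
Ccnd2: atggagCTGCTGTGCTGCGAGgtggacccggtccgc
Ccnd3: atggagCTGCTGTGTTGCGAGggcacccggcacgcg
The motif spans codons 5 to 9 in Ccnd1 and codons 3 to 7 in Ccnd2 and Ccnd3. The longest exact run that any transcripts of 2 D cyclins shared was 20 bases, between Ccnd1 and Ccnd2, and it is coding in both (ttcaagtgcgtgcagaagga, coding bases 133 to 152 of Ccnd1 and 127 to 146 of Ccnd2). The runs were 17 bases for Ccnd1 with Ccnd3 and 15 bases for Ccnd2 with Ccnd3. Among the kinases the longest was 34 bases, between Cdk2 and Cdk6 transcripts, whose coding sequences shared at most 14 bases. The longest coding run of the kinases was 20 bases, between Cdk4 and Cdk6. Among the E2f factors the longest run was 30 bases, between E2f3 and E2f4, and it is coding in both. Read length is not given in the sources used here, so no share of ambiguous reads was computed.

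Per kilobase of exon, the mean level over all 6 mice ran from Ccnd2 (52.5 CPM per kilobase) through Ccnd3 (35.6), Ccnd1 (19.0), Cdk4 (14.97), E2f4 (7.90), Cdk6 (4.99), E2f1 (3.16), E2f3 (1.34) and Cdk2 (1.10) to Ccne1 (0.441). By these means the D cyclin transcripts headed the set. The ranges over mice overlapped for Ccnd2 with Ccnd3 (38.8 to 62.8 against 28.5 to 41.2 CPM per kilobase), for Ccnd1 with Cdk4 and with E2f4 (8.40 to 23.6 against 6.28 to 10.7), for Cdk6 with E2f1, and among E2f1, E2f3 and Cdk2, and the lower end of Cdk2 reached into the range of Ccne1. Ccnd3 stayed above Ccnd1, Cdk4 above E2f4 and E2f4 above Cdk6 in every mouse-to-mouse comparison. Without division by length, Cdk6 moved from rank 6 to rank 4. The labels name a digital RNA-seq service, and whether its reads come from 1 end of the transcript, for which length scaling would not apply, is not stated.

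**Figure D1:**
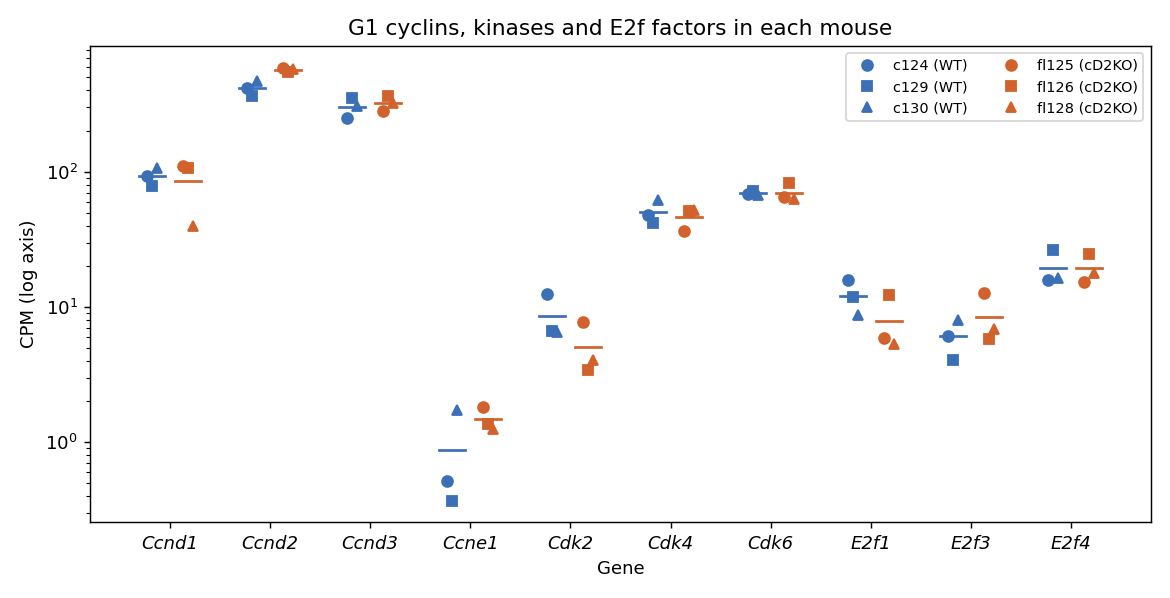
Level of each of the 10 genes in each mouse, in CPM on a log axis. Symbols are single mice, blue for WT and orange for cD2KO, and short lines are group means. All 3 cD2KO symbols of Ccnd2 lie above all 3 WT symbols, and Ccnd1 of mouse fl128 lies far under the other 5.

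In cD2KO libraries 1 of the 9 tested genes stood higher and 0 stood lower, with an unadjusted p under 0.05 in the quasi-likelihood test of edgeR as the line. Over all 11633 genes tested, 5.34% were called higher and 6.62% lower at this threshold (12% in both directions), so 1 call among 9 genes is close to the background. The DESeq2 Wald test and limma voom also called 1 member higher and 0 lower. No member had an adjusted p under 0.05, against 0.0086% of all genes, or under 0.1, against 0.774%. The median log2 fold change of the 9 genes was 0.00 and that of all genes tested -0.02.

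Ccnd2, on the minus strand of chromosome 6 from 127125162 to 127152193, encodes cyclin D2, the D cyclin with the most counts here, and was the gene called. It was at 415, 365 and 471 CPM in c124, c129 and c130 and at 591, 546 and 578 CPM in the cD2KO libraries fl125, fl126 and fl128. Every cD2KO library lay above every WT library, which was so for 1 of the 9 members. Of all genes tested 18.1% did not overlap and 8.05% did so in this direction. The means were 417 ± 52.8 and 572 ± 23.3 CPM (SD, n = 3 mice each). The log2 fold change was 0.45 (95% interval 0.04 to 0.87, unadjusted p = 0.0329, adjusted p = 0.377, edgeR), which ranked 1013 of 11633 genes by p.

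The direction of Ccnd2 did not change in any fit, but the call did. With single mice left out, its log2 fold change ran from 0.39 to 0.58, and the unadjusted p of edgeR was under 0.05 in 2 of 6 fits, those without c130 (0.0332) and without fl125 (0.0294). It was 0.0777 without c124, 0.0753 without c129, 0.0660 without fl126 and 0.0537 without fl128. Counts scaled to the library total gave a log2 fold change of 0.39 (unadjusted p = 0.0580, edgeR). The mural and activated myogenic marker sums were also higher in all cD2KO libraries, and the immune sum was lower. Des alone averaged 314 of 375 CPM of the activated myogenic sum in WT and 605 of 664 CPM in cD2KO. Of the 4 activated myogenic genes tested 1 was above 0 and 3 were below. The sum of the muscle stem cell markers overlapped, with 9 of 12 genes above 0 and 3 below. The part of these marker genes in the Ccnd2 difference was not tested. Antisense genes overlap the exons of Ccnd2 but held 10 counts over all 6 mice.

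Ccnd3, on chromosome 17 from 47505051 to 47599691, encodes cyclin D3. Its levels overlapped, at 250, 349 and 305 CPM in c124, c129 and c130 and at 282, 362 and 325 CPM in fl125, fl126 and fl128. The means were 301 ± 49.9 and 323 ± 40.1 CPM (SD, n = 3 mice each), and the 95% interval of the log2 fold change was -0.33 to 0.54.

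Ccnd1, on chromosome 7 from 144929931 to 144939925, encodes cyclin D1. The WT mice c124, c129 and c130 had 93.2, 78.3 and 108 CPM, and the cD2KO libraries fl125, fl126 and fl128 had 111, 106 and 39.6 CPM. The library fl128 was low and the other 5 overlapped. The group means were 93.0 ± 14.7 and 85.6 ± 39.95 CPM (SD, n = 3 mice each). The coefficient of variation among cD2KO libraries was 46.7%, against 7.13% from counting error alone and 15.8% among WT mice. The log2 fold change was -0.13 (95% interval -0.85 to 0.60) with all mice, 0.22 without fl128 and 0.01 without c130, so its sign depends on which mice are included. In the same library the 42 genes of the E2F target list summed to 551 CPM, the lowest of the 6, and the mural markers to 16360 CPM, the highest.

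Overlapping genes limit the precision of these counts where strand was not used. Bysl overlaps the exons of Ccnd3 with 528 counts over the 6 mice, and LTO1 those of Ccnd1 with 169. Tspan31 overlaps the exons of Cdk4 with 204 counts, while Gm17590 and Pmel overlap those of Cdk6 and Cdk2 with 6 counts each.

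The D cyclins were next read as a group, with measures that were chosen after the values had been seen. Their summed level was 758, 793 and 883 CPM in c124, c129 and c130 and 984, 1014 and 943 CPM in fl125, fl126 and fl128. The groups did not overlap, at 811 ± 64.6 and 980.1 ± 35.8 CPM (SD, n = 3 mice each). A two-sided exact permutation test gave p = 0.1, below which 3 mice against 3 cannot go. Scaled to the library total the difference fell from 169 to 130 CPM with an overlap (exact permutation test, p = 0.2). Among the D cyclins, Ccnd2 alone did not overlap between the groups.

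The ratio of Ccnd1 to Ccnd2 counts within a library does not depend on scaling. On the log2 scale it was -2.16, -2.22 and -2.13 in c124, c129 and c130, a spread of 0.05 (SD), and -2.41, -2.36 and -3.87 in fl125, fl126 and fl128. All cD2KO libraries were below all WT libraries, by 0.71 on average (two-sided exact permutation test, p = 0.1, again the lowest this design gives). Without fl128 the mean difference was -0.22 and the libraries still did not overlap.

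As a share of the D cyclin counts, Ccnd2 took 54.8%, 46.1% and 53.3% in c124, c129 and c130 and 60.1%, 53.8% and 61.3% in fl125, fl126 and fl128. The groups overlapped, since fl126 lay under c124, with means of 51.4 ± 4.66% and 58.4 ± 4.02% (SD, n = 3 mice each), and the exact permutation p, two-sided, was 0.2. Exact 95% binomial intervals, which cover counting error only, were 53.0% to 56.6% for c124 and 52.0% to 55.6% for fl126. Ccnd1 took 4.20% in fl128 (3.51% to 4.98%) and 9.87% to 12.3% in the other 5 mice.

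**Figure D2:**
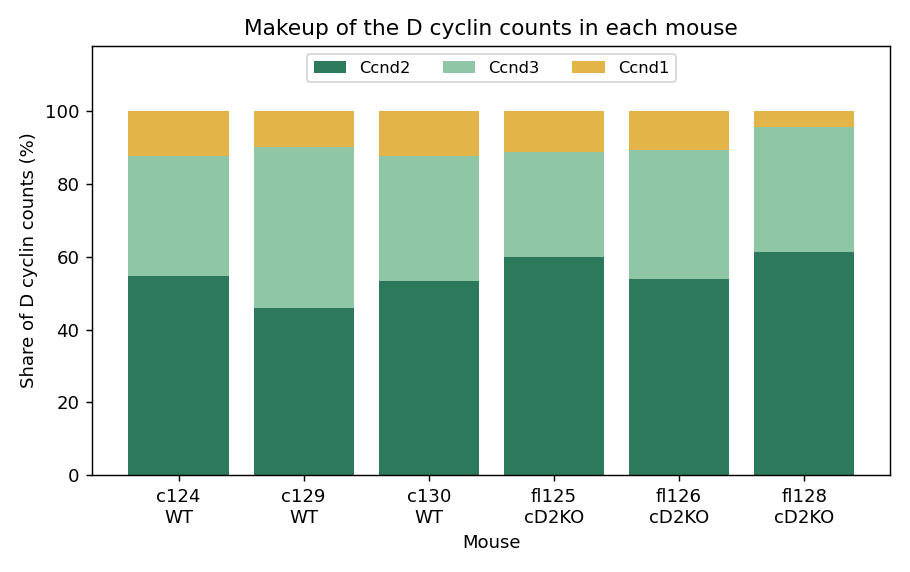
Share of the D cyclin counts of each mouse, in percent, that fell on Ccnd2, Ccnd3 and Ccnd1. The Ccnd2 share was 46.1% to 54.8% in WT and 53.8% to 61.3% in cD2KO mice, and the Ccnd1 share was lowest in fl128, at 4.20%.

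Cdk4, on chromosome 10 from 127063534 to 127067920, and Cdk6, on chromosome 5 from 3341485 to 3531008, are the partners of the D cyclins. Cdk4 was at 48.1, 42.1 and 62.0 CPM in c124, c129 and c130 and at 36.2, 51.6 and 51.8 CPM in fl125, fl126 and fl128. Cdk6 was at 68.9, 72.0 and 67.8 CPM in the WT mice and at 65.2, 82.1 and 62.8 CPM in the cD2KO libraries. Both overlapped between the groups. The 95% intervals of their log2 fold changes in edgeR were -0.64 to 0.41 for Cdk4 and -0.42 to 0.44 for Cdk6, the latter centred on 0.01. Cdk6 varied little among WT mice, with a coefficient of variation of 3.10% against 6.82% from counting error, and more among cD2KO mice.

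Cdk2, on chromosome 10 from 128697939 to 128705031, is the partner of cyclin E. It was low, at 12.6, 6.65 and 6.58 CPM in c124, c129 and c130 and at 7.70, 3.42 and 4.08 CPM in fl125, fl126 and fl128. The cD2KO libraries fl126 and fl128 lay under every WT mouse and fl125 within the WT range. The log2 fold change was -0.79 (95% interval -1.97 to 0.39, adjusted p = 0.623, edgeR), and it ran from -1.16 to -0.40 with single mice left out. With 10 to 49 counts per library, counting error alone gave a coefficient of variation of 20.7% in WT and 28.0% in cD2KO.

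Together the kinases summed to 128.9 ± 7.85 CPM in the controls against 122 ± 14.2 CPM in the cD2KO group (SD over 3 mice), and the exact permutation p was 0.5. Cdk4 made up 39.2 ± 5.56% and 38.2 ± 5.25% of the kinase counts (SD over 3 mice), for which the exact permutation p was 0.8.

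Ccne1, on chromosome 7 from 38097984 to 38107534, encodes cyclin E1, which binds Cdk2 late in G1. It had 2, 1 and 5 counts in c124, c129 and c130 and 4 counts in each of fl125, fl126 and fl128. These lie on both sides of the 3 counts taken as the floor. The pooled counts of 8 in WT and 12 in cD2KO gave a ratio of 1.71 with a 95% counting interval of 0.644 to 4.83, so that no difference was detectable at this depth (two-sided exact permutation test on CPM, p = 0.3).

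E2f1, on chromosome 2 from 154559407 to 154569892, was at 15.9, 11.8 and 8.65 CPM in c124, c129 and c130 and at 5.89, 12.3 and 5.34 CPM in fl125, fl126 and fl128. The libraries fl125 and fl128 were under all WT mice, and fl126 was within the WT range. The log2 fold change was -0.63 (95% interval -1.62 to 0.37, adjusted p = 0.650, edgeR). It depended on the mice included, at -0.38 without c124, -0.40 without fl128, -0.43 without fl125 and -1.11 without fl126, and no fit called it (unadjusted p from 0.0552 to 0.508 in edgeR with a mouse left out).

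E2f3, on chromosome 13 from 29906575 to 29986063, had 6.15, 4.06 and 7.96 CPM in the WT mice and 12.7, 5.81 and 6.91 CPM in fl125, fl126 and fl128. The library labelled fl125 was high and the others overlapped. The log2 fold change was 0.46 (95% interval -0.67 to 1.59) and fell to 0.11 without fl125.

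E2f4, on chromosome 8 from 105297663 to 105305370, was at 15.9, 26.2 and 16.3 CPM in c124, c129 and c130 and at 15.4, 24.6 and 17.9 CPM in fl125, fl126 and fl128. The groups overlapped throughout, at 19.5 ± 5.86 and 19.3 ± 4.77 CPM (SD, n = 3 mice each), and the log2 fold change was 0.00 to 2 decimals with a 95% interval of -0.82 to 0.82.

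E2f4 held 51.2 ± 10.3% of the counts of the E2f factors in WT and 54.1 ± 7.65% in cD2KO mice (SD over 3 mice, exact permutation p = 0.8), and E2f1 held 32.1 ± 8.53% and 21.3 ± 6.52% (p = 0.3 by the same exact test). The log2 ratio of E2f1 to E2f4 was 0, -1.15 and -0.91 in c124, c129 and c130 and -1.39, -1 and -1.75 in fl125, fl126 and fl128 (exact permutation test, p = 0.2). Every cD2KO library lay under c124 and c130, and fl126 lay above c129, so the groups overlapped.

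**Figure D3:**
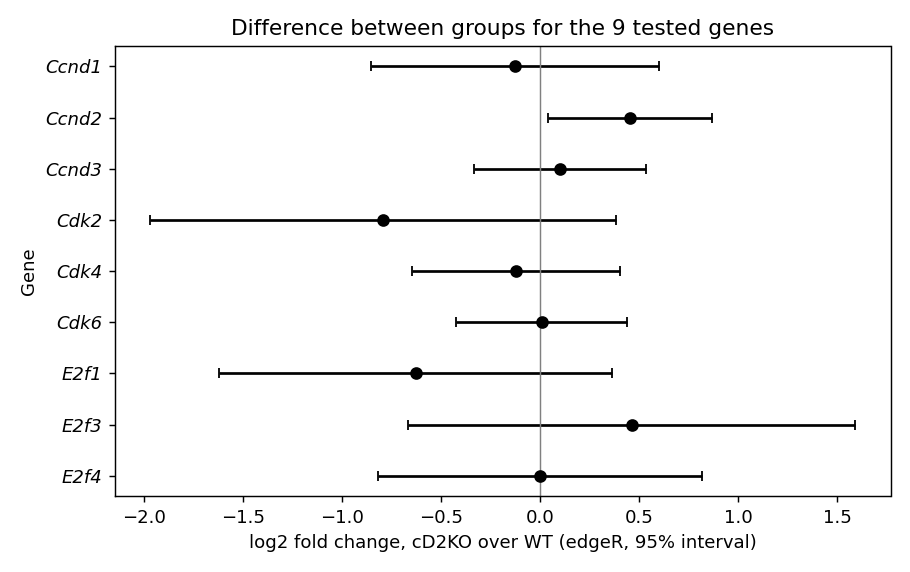
Log2 fold change of cD2KO over WT for the 9 genes tested, with 95% intervals from edgeR. Only the interval of Ccnd2 (0.04 to 0.87) lies on 1 side of 0, and those of Cdk2, E2f1 and E2f3 are the widest.

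Leaving out single mice changed the sign of Ccnd1, Ccnd3, Cdk4, Cdk6 and E2f4, all of which lay near 0. Ccnd2 and E2f3 stayed above 0 and Cdk2 and E2f1 below 0 in all 6 fits.

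**Figure D4:**
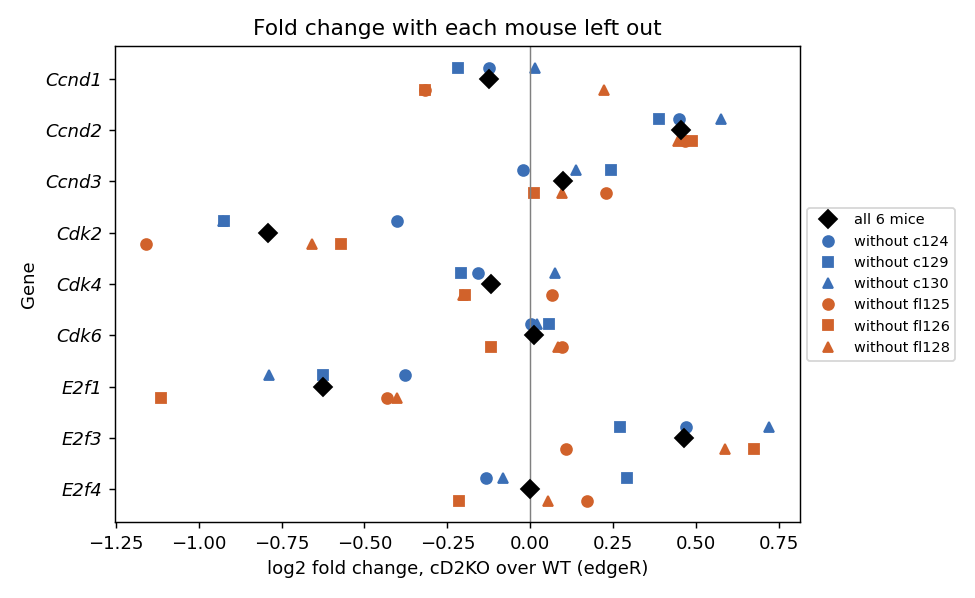
Log2 fold change of cD2KO over WT with all 6 mice (black diamonds) and with each mouse left out (blue symbols, a WT mouse left out, and orange symbols, a cD2KO mouse left out). Ccnd2 runs from 0.39 to 0.58, and Ccnd1 crosses 0 to 0.22 when fl128 is left out.

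Other genes of the pathway were read from hand-written lists. Of 42 listed genes of G1 control, among them the CDK inhibitors, the pocket proteins and the remaining E2f and DP factors, 40 were found in the table and 33 were tested. Of these, 0 were higher and 1 was lower at an unadjusted p under 0.05 in edgeR (DESeq2 and limma voom also gave 0 and 1), with a median log2 fold change of -0.11. This 1 of 33 is no more than the background, since 6.62% of all genes were lower. The lower gene was Cks1b, which encodes a small subunit of cyclin-dependent kinase complexes that helps to degrade the inhibitor p27. It was at 20.7, 18.5 and 23.5 CPM in c124, c129 and c130 and at 12.7, 10.6 and 9.11 CPM in fl125, fl126 and fl128, with no overlap and a log2 fold change of -0.96 (unadjusted p = 0.0116, adjusted p = 0.248, edgeR). Of all genes tested 10% were lower without overlap. Other tested genes of the list did not overlap either, Ccna2, Rb1 and Lin54 lower and Cdkn1a higher. These were not called in edgeR with all mice. Cks1b was called in every fit with a mouse left out. The summed level of the list was 1264 to 1397 CPM in WT and 1358 to 1516 CPM in cD2KO.

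Of 42 genes that E2f factors are known to drive in S phase, 35 were tested, and 0 were higher and 3 lower in edgeR (0 and 2 with DESeq2 or limma voom). With 6.62% of all genes lower, 3 of 35 is close to the background. The median log2 fold change was -0.31, and 27 of the 35 were below 0, against 6038 of 11633 over all genes. The lower genes were Mcm4 (log2 fold change -1.20), which went from 11.7 ± 0.915 to 5.08 ± 1.37 CPM, Mcm5 (-0.86), from 27.1 ± 3.43 to 15.1 ± 8.06 CPM, and Chaf1a (-1.30), from 14.97 ± 7.12 to 6.04 ± 0.271 CPM (SD, n = 3 mice each). Mcm4 and Mcm5 encode subunits of the replicative helicase and Chaf1a a subunit of a histone chaperone. Their adjusted p ran from 0.277 to 0.418 in edgeR, and the count fell to 1 without c130 (then Pole) and to 1 without fl128 (then Chaf1a). The sum of the list overlapped, at 789 to 909 CPM in WT and 551 to 805 CPM in cD2KO.

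Of 25 genes of cell division, 16 were tested, and 0 were higher and 6 lower in edgeR (0 and 4 with DESeq2 or limma voom). Among all genes 6.62% were lower. The list was chosen with earlier results of these data known, so the comparison is not an independent test. The median log2 fold change was -0.58. By p the first were Birc5, which encodes survivin (log2 fold change -1.19), and Ube2c, an enzyme that works with the anaphase-promoting complex (-1.29). Next came Top2a, a DNA topoisomerase (-0.65), and Kif23, a kinesin of cytokinesis (-0.84). The adjusted p of these genes ran from 0.253 to 0.396 in edgeR. The others were Mki67 and Cdc20. The summed level did not overlap, at 192, 234 and 225 CPM in c124, c129 and c130 and 134, 151 and 138 CPM in fl125, fl126 and fl128. The count of lower division genes fell from 6 to 2 without c129, c130, fl125 or fl128, to 3 without fl126 and to 4 without c124. The immune sum was also lower in all cD2KO libraries, and its part in the division genes was not tested.

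**Figure D5:**
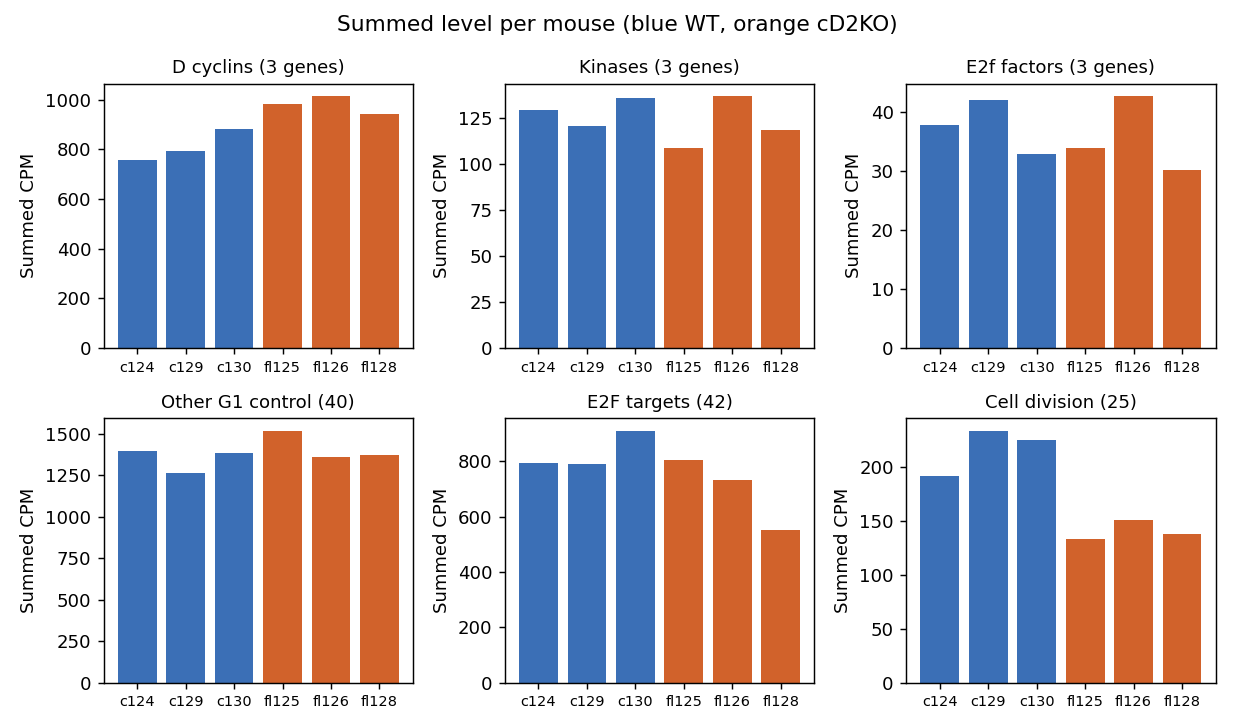
Summed level in CPM of the D cyclins, the kinases, the E2f factors and 3 lists of pathway genes in each mouse, with WT in blue and cD2KO in orange. The D cyclin sum is higher in each cD2KO mouse (943 to 1014 CPM) than in each WT mouse (758 to 883 CPM), the cell division sum is lower in each, and the kinase, E2f, other G1 control and E2F target sums overlap.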

How the data were processed

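RNA from qMuSCs of 6 mice was measured by RNA-seq, and the mice were grouped by the genotype in the labels. RNA was extracted with a column kit. The authors deposited 1 unnormalized count per gene and mouse, made on mm10. The processing notes of the submitters name bcl2fastq, STAR 2.6.0a and HTSeq 0.9.1, while annotation, strand setting and duplicate handling are not given in the sources used here. GENCODE M21 gave symbols for 30934 of 31053 identifiers, coordinates, exon lengths (union of exons) and sequences.

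Genes whose mean DESeq2-normalized count exceeded 10 were kept (11633). They were scaled with TMM factors on total counts and fitted in edgeR 4.0.16 (R 4.3.3) by its robust quasi-likelihood method, with 3 WT and 3 cD2KO mice and no covariate. A call is an unadjusted p under 0.05, the line the study draws, and Benjamini-Hochberg adjusted p over all genes tested stand beside it. Intervals use standard errors taken as the log2 fold change over the square root of F. For shares, sums and ratios an exact permutation test, two-sided, was used. Alternatives were DESeq2 1.42.0, limma voom (limma 3.58.1), other scaling, other minimum counts and each mouse left out. The fits were tested on simulated data.

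The members and the gene lists were chosen with earlier results of these data known. Named genes are the 10 members, Dio2 and, per pathway list, up to 4 called genes in each direction by p. Mki67, Cdc20, Pole, Ccna2, Rb1, Lin54, Cdkn1a and the marker genes given by name were named after their values were seen. Cdk3 and Skp1 matched no symbol. The sums and the log2 ratios were chosen once values were known.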

Additional observations from a re-analysis of the deposited data

How the results depend on the processing

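No paired analysis was possible because the labels give the groups no shared replicate numbers. Of 105 alternative values for single members, 85 kept direction and side of the threshold, 5 lost the Ccnd2 call and 15 changed sign. With counts scaled to the total, 0 members and 5 E2F target genes were called in place of 1 and 3, and 445 genes were higher and 945 lower in place of 621 and 770. Without an expression minimum 939 genes were higher. A minimum mean of 50 counts tests fewer genes, and left 0 lower genes of G1 control, 1 of division and 505 in all. E2f4 had log2 fold changes of 0.019 with DESeq2, 0.048 with limma voom, 0.026 with DESeq2 size factors and 0.037 without a minimum, and Cdk6 of -0.052 with total scaling and -0.024 with the minimum of 50.

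With single mice left out, the counts ran from 0 to 1 for higher members, 0 to 1 for higher and 1 to 2 for lower genes of G1 control, 0 to 1 for higher and 1 to 4 for lower E2F targets, 2 to 4 for lower division genes, 402 (without fl128) to 933 (without fl125) for all higher genes and 399 (without c129) to 874 for all lower genes. The log2 fold changes ran from -0.32 to 0.22 for Ccnd1, -0.020 to 0.24 for Ccnd3, -0.21 to 0.076 for Cdk4, -0.12 to 0.10 for Cdk6 and -0.21 to 0.29 for E2f4. The difference of the Ccnd2 share stayed between 4.38 and 9.33 percentage points, while those of Cdk4 (-3.72 to 2.16) and E2f4 (-1.77 to 8.42) changed sign. The cause of these shifts was not tested. Depth limits Ccne1, Cdk2 and E2f3 most.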
